A study of Homo sapiens with 15 samples.

Results

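The genes described here are 36 human genes of the response to low oxygen and of glycolysis, chosen by name from the deposited expression table, which holds 26443 gene names with values. All 36 were found. They were treated as 19 genes of glycolysis (enzymes and the PFKFB regulators of its phosphofructokinase step) and 17 other genes of the hypoxia response. The RNA came from LNCaP, an established human prostate cancer line that responds to androgen, kept in RPMI medium with serum. Lentiviruses had been on the cells for 4 to 5 days, with the control vector pLKO or with a short hairpin RNA against PALI1 (shPALI1), G9a (shG9a), JARID2 (shJarid2) or SUZ12 (shsuz12), and each of these 5 groups had 3 libraries. Every group carried a lentivirus, the labels give the genotype of all as WT, and each target had 1 hairpin name, so an effect of the lost protein and an effect of that hairpin elsewhere cannot be told apart. The labels name no low-oxygen treatment.

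Sequencing depth, worked out from the step that 1 read makes in short RNA genes, was 10.53 to 19.39 M reads per library. For a gene model of 2 kb, 1 RPKM (reads per kilobase per M reads) was then worth 21.1 to 38.8 reads. Each hairpin's target was low in its group. For PALI1, the C10orf12 row that marks it was at 23.8% of pLKO and the LCOR row of the same locus at 60%. EHMT2 (G9a) was at 25.7%, JARID2 at 18.3% and SUZ12 at 12.5%. Within groups, pairs of libraries correlated across genes at 0.986 or above, except that shJarid2 replicate 3 reached 0.9745 and 0.9784 with its partners. Genes are not replicates, so these are descriptions. The labels do not say whether replicates were separate cultures, so a p-value speaks only of how much these libraries varied, and that variation may be technical. In GENCODE v29, 18 of the 36 genes have an exon that overlaps an exon on the other strand, and 15 have a pseudogene named after them; no source used here says whether counting used strand. The label was checked against cell type markers. All 9 of 9 luminal prostate markers had a mean above 1 RPKM in every group, and their summed level was 2082 to 2303 RPKM in pLKO, 849.7 to 962.4 in shPALI1, 1043 to 1101 in shG9a, 1662 to 1956 in shJarid2 and 1321 to 1412 in shsuz12. Immune and erythroid markers stayed at or below 0.2318 RPKM summed over their lists, and of 3 basal prostate markers TP63 and KRT5 were listed at 0 in pLKO and shJarid2, while KRT14 was at 3.408 to 4.86 RPKM in shJarid2 against 0.1049 to 0.5935 in pLKO. Endothelial markers summed to 0.7525 to 0.9595 RPKM in pLKO and 2.336 to 2.481 in shG9a, and fibroblast markers to 4.265 to 4.99 in pLKO and 1.195 to 1.791 in shJarid2. The endothelial sum was mostly VWF (means 0.82 and 2.35 RPKM), while PECAM1 (0.021 and 0.0032) and CDH5 (0 and 0.043) stayed near 0. The fibroblast sum was mostly COL1A1 (4.52 and 1.41), with PDGFRB at 0.178 and 0.053. COL1A2 and DCN were at 0 in both groups. Each sum thus follows 1 gene and is not read as a level of that cell type. The part of these differences in the results below was not tested, and in bulk RNA fewer cells of a kind and less RNA per cell cannot be told apart.

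Cells sense oxygen through the HIF transcription factors. In air, prolyl hydroxylases (EGLN1, EGLN3) mark the HIF1A protein and the ubiquitin ligase subunit VHL leads it to destruction. When oxygen is short the protein stays, pairs with ARNT, and binds hypoxia response elements, whose core reads ACGTG, near genes for glucose uptake, glycolysis, lactate export, acid handling and blood vessel growth. HIF1A is therefore governed mainly at the protein level, which RNA sequencing does not measure. Glycolysis splits glucose into pyruvate, and lactate dehydrogenase turns pyruvate to lactate. Normal prostate epithelium is known for exporting citrate rather than for strong glycolysis.

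The core of the hypoxia response element was looked for in the promoter windows of RefSeq (GRCh38.p14; 250 bases before to 50 after a start). Of the 36 genes, 33 had a window; VEGFA, NDRG1 and BNIP3L had none. The letters ACGTG, on either strand, were in the windows of 14 of these 33 genes (42.4%), against 21.6% of 27305 windows in all and 27.5% of those of genes tested here. Matches on the 2 strands can overlap, since CACGTG holds the core both ways. The bases of a window that come before the first exon of a protein-coding gene in GENCODE v29, and 30 bases around each further core, are printed 5′ to 3′ on the gene's strand with the core on either strand in capitals. They are given for genes whose levels carry the results: LDHA, which fell under 3 hairpins, HK2 and AK4, which fell under all 4, and ALDOA, PGK1 and BNIP3, which rose under shJarid2. A match is a string of letters, not a shown binding site.
LDHA (chr11:18394313-18394387, plus strand): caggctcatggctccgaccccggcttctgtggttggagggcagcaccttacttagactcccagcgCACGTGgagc
LDHA (chr11:18394470-18394499, plus strand): gactcaCACGTGggttcccgCACGTccgcc
HK2 (chr2:74833877-74833980, plus strand): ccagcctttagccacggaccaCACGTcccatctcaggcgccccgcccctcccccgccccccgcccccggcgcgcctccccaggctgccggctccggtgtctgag
HK2 (chr2:74834066-74834095, plus strand): caatgggcgtgcgCACGTcactgatccgga
AK4 (chr1:65147302-65147548, plus strand): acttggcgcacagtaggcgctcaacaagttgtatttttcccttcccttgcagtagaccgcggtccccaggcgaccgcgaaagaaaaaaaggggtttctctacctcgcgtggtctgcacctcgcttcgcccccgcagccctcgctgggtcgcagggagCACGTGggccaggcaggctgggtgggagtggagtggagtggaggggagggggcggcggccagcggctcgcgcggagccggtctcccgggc
ALDOA (chr16:30064088-30064117, plus strand): cccttcccctccaCACGTcaacgattctat
PGK1 (chrX:78103998-78104173, plus strand): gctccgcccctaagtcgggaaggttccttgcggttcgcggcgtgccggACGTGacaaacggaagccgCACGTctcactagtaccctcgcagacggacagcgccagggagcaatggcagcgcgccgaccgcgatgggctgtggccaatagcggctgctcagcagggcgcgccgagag
PGK1 (chrX:78104263-78104292, plus strand): agcctccggagcgCACGTcggcagtcggct
BNIP3 (chr10:131982014-131982173, minus strand): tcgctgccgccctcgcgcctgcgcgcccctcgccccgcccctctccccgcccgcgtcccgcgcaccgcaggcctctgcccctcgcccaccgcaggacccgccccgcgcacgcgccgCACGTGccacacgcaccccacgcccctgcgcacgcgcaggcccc

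Each group was compared with pLKO to ask how these genes respond when that chromatin factor is lowered. Glycolysis genes fell more often than they rose under shPALI1, shG9a and shsuz12, and so did the tested genes as a whole. Under shJarid2 12 of 35 genes rose, among them ALDOA, PGK1, BNIP3, SLC2A1 and SLC16A3. Differences were tested with limma on log2(RPKM + 1) over 12715 genes that had at least 1 RPKM in at least 3 libraries; a gene rose or fell where its Benjamini-Hochberg adjusted p over all of them was under 0.05. Of the 36 genes, 35 passed this filter, and CA9 did not. Under shPALI1, 2 of 35 rose and 14 fell, where 16.5% of all tested genes rose and 25.1% fell. Under shG9a, 6 rose and 16 fell (18.4% and 24.7% of all tested genes). Under shJarid2, 12 rose and 7 fell (23.8% and 27.2%). Under shsuz12, 6 rose and 16 fell (21.1% and 32.8%). So many genes changed in every comparison that a change in a single gene of the set was common in itself.

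The genes of glycolysis and the other hypoxia genes were then counted apart. Beside both counts stand the shares of all tested genes that rose and fell. These were 16.5% and 25.1% under shPALI1, 18.4% and 24.7% under shG9a, 23.8% and 27.2% under shJarid2, and 21.1% and 32.8% under shsuz12. Of 19 glycolysis genes, 0 rose and 7 fell under shPALI1, 1 rose and 10 fell under shG9a, 5 rose and 4 fell under shJarid2, and 2 rose and 13 fell under shsuz12. Their median log2 change was -0.26, -0.30, 0.03 and -0.36 in that order, beside -0.05, -0.04, -0.04 and -0.08 over all tested genes. Rises and falls together made up 36.8%, 57.9%, 47.4% and 78.9% of the 19 genes, beside 41.6%, 43.1%, 51% and 53.9% of all tested genes. Of the 16 other hypoxia genes tested, 2 rose and 7 fell under shPALI1, 5 and 6 under shG9a, 7 and 3 under shJarid2, and 4 and 3 under shsuz12, with medians of -0.11, -0.14, 0.25 and 0.03. The 0 rises of glycolysis genes under shPALI1 stayed 0 at an unadjusted p under 0.05, and became 1, GAPDH, with median ratio scaling or when values were rescaled to a common sum (TPM), and 1, LDHB, with quantile normalization. The shsuz12 split depended on scaling: with median ratio scaling 8 of the 35 rose and 10 fell, quantile normalization gave 9 rises and 13 falls, and TPM gave 9 and 12. Its 13 glycolysis falls became 7 without pLKO replicate 1 and 8 without shsuz12 replicate 3, and the 5 glycolysis rises under shJarid2 became 3 without shJarid2 replicate 1 or without pLKO replicate 3. The 4 comparisons share the pLKO libraries, so their values stand side by side and are not independent.

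**Figure D1:**
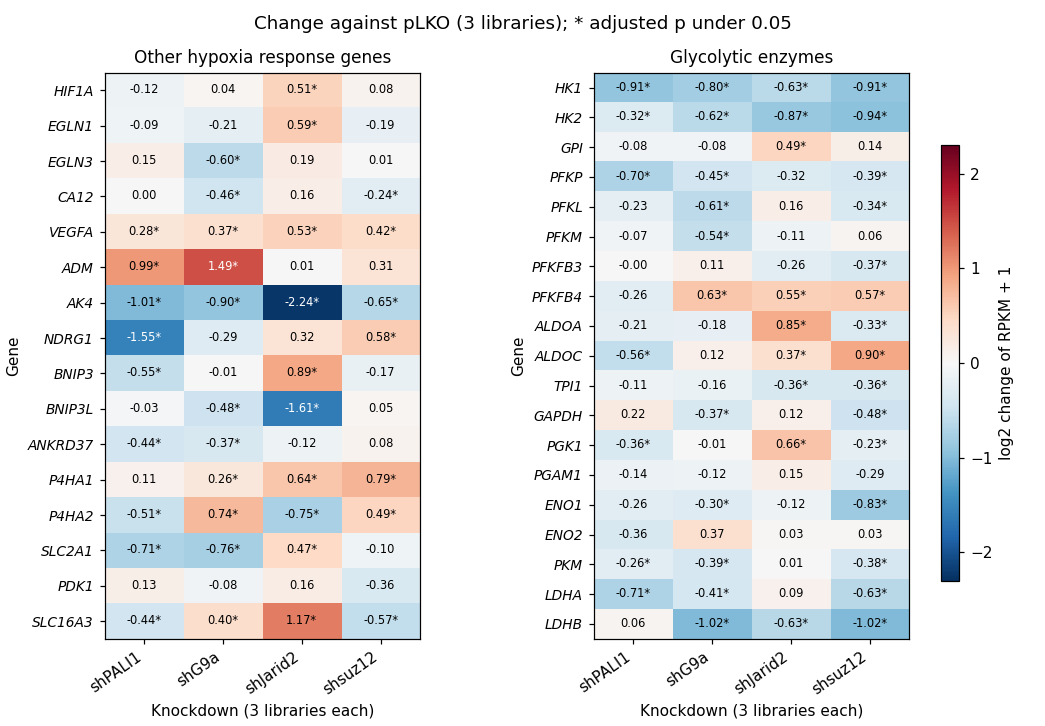
Log2 change of RPKM + 1 against pLKO for the 16 tested hypoxia response genes (left) and the 19 glycolysis genes (right), 1 column per hairpin and 3 libraries per group; red is higher than pLKO, blue lower, and a star marks an adjusted p under 0.05. HK1, HK2 and AK4 are lower in every column, VEGFA is higher in every column, and ALDOA, PGK1 and BNIP3 are higher in the shJarid2 column.

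Of the 35 tested genes, 6 passed in all 4 comparisons: VEGFA rose in each, AK4, HK1 and HK2 fell in each, and P4HA2 and SLC16A3 rose under 2 hairpins and fell under 2. A further 3 genes, PDK1, PGAM1 and ENO2, did not pass in any comparison with pLKO. In all, 8 genes rose under some hairpin and fell under another. Over all tested genes, 10.8% passed in all 4 comparisons (2.1% rose in each and 3.61% fell in each), 15.1% passed in none, and 23.4% had both a rise and a fall, so these counts are a description and nothing is read from them.

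The oxygen-sensing genes came next. HIF1A, the oxygen-regulated subunit of the factor (chr14:61695513-61748259, plus strand in GENCODE v29 on GRCh38), was at 21.2, 22.7 and 21.3 RPKM in pLKO, 17.9, 20.4 and 21.5 in shPALI1, 22.6, 22.9 and 21.8 in shG9a, 39.2, 38.4 and 20.2 in shJarid2 and 25.6, 22.2 and 21.3 in shsuz12. Outside shJarid2 all 12 libraries lay between 17.91 and 25.59 RPKM. The shJarid2 replicates 1 and 2 stood well above, and shJarid2 replicate 3 was below every pLKO library. The log2 change under shJarid2 was 0.51 ± 0.18 (SE; adjusted p = 0.029), and this call was kept in 6 of 15 alternatives. It was lost when any pLKO library was left out and without shJarid2 replicate 1 (0.35, adjusted p = 0.13) or replicate 2. Other alternatives lost it too, and it stood at 0.81 (adjusted p = 2.53e-06) without replicate 3. The other hairpins gave log2 changes of -0.12, 0.04 and 0.08, which did not pass.

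EGLN1, the main prolyl hydroxylase that marks HIF proteins, was at 9.43, 9.49 and 8.73 RPKM in pLKO, 8.82, 8.76 and 8.13 in shPALI1, 8.19, 8.0 and 7.36 in shG9a, 16.4, 15.1 and 12.1 in shJarid2 and 8.15, 7.97 and 7.69 in shsuz12. All 3 shJarid2 libraries lay above all other libraries, and it rose there to 157% of pLKO (log2 change 0.59 ± 0.09, adjusted p = 7.2e-05). EGLN3, a hydroxylase that HIF itself induces, was at 5.68, 5.67 and 4.57 RPKM in pLKO, 5.88, 5.903 and 6.21 in shPALI1, 2.89, 3.601 and 2.999 in shG9a, 7.08, 5.55 and 6.02 in shJarid2 and 5.43, 5.71 and 4.88 in shsuz12. The shG9a libraries were the lowest and did not overlap with those of any other group, at 59.6% of pLKO (log2 change -0.60 ± 0.10, adjusted p = 0.00026). Under the other hairpins EGLN3 did not pass.

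Other regulators of HIF came from a list drawn up with earlier results of these data known. VHL was at 31.00 ± 1.3 RPKM in pLKO and 42.1 ± 6.6 in shJarid2 (SD, n = 3), where it rose (log2 change 0.42, adjusted p = 0.00097), and it rose under shPALI1 as well (0.25, adjusted p = 0.03). ARNT, the partner of HIF1A, fell under shPALI1 (-0.37, adjusted p = 0.011) and under shJarid2 (-0.29, adjusted p = 0.03). HIF1AN, a hydroxylase that blocks HIF's coactivator binding, fell under shPALI1 (-0.26) and rose under shG9a (0.19) and shsuz12 (0.35). ARNT2, a relative of ARNT, rose under shPALI1 (0.32), shG9a (0.24) and shsuz12 (0.59). CITED2, an inhibitor that competes with HIF for its coactivator, had the largest change of the list: it was at 30 ± 4.6 RPKM in pLKO and 123 ± 4 in shPALI1, without overlap, a log2 change of 2.01 ± 0.09 (adjusted p = 2.04e-09). It fell under shG9a (-0.36) and rose under shJarid2 (0.25) and shsuz12 (0.36). ARNT2 and CITED2 were named after their values were seen. EPAS1, which encodes HIF2 alpha, was under 0.41 RPKM in every library and EGLN2 under 0.27, so neither was tested. The EGLN2 gene shares its locus with the readthrough gene RAB4B-EGLN2, and no source used here says how such reads were counted. Of the 8 regulators listed, 5 were tested. Under shPALI1 3 rose and 2 fell, where 16.5% of all tested genes rose and 25.1% fell. The counts were 2 and 1 under shG9a (18.4% and 24.7% of all tested genes) and 2 and 1 under shJarid2 (23.8% and 27.2%). They were 3 and 0 under shsuz12 (21.1% and 32.8%), where 0 also fell at an unadjusted p under 0.05. With 5 genes these counts are a description and nothing is read from them.

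The secreted and surface targets followed different hairpins. VEGFA, the growth factor for blood vessels (chr6:43770184-43786487, plus strand), was at 25.3, 25.4 and 23.1 RPKM in pLKO, 27.8, 31.8 and 30.7 in shPALI1, 31.1, 32.98 and 32.1 in shG9a, 39.8, 34.9 and 32.95 in shJarid2 and 31.6, 35.4 and 33.02 in shsuz12. Every library of every hairpin lay above the pLKO libraries. VEGFA rose by 0.28 ± 0.08 under shPALI1, 0.37 ± 0.08 under shG9a, 0.53 ± 0.08 under shJarid2 and 0.42 ± 0.08 under shsuz12 on the log2 scale (adjusted p = 0.0098, 0.0016, 6.3e-05 and 0.00038), or 1.23 to 1.46 times the pLKO level, and kept these calls under every alternative.

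ADM encodes adrenomedullin, a vessel-dilating peptide. It was at 0.305, 0.118 and 0.2698 RPKM in pLKO, 2.02, 1.098 and 1.28 in shPALI1, 2.31, 2.61 and 2.41 in shG9a, 0.159, 0.171 and 0.404 in shJarid2 and 0.3898, 0.465 and 0.731 in shsuz12. It was at or below 0.4041 RPKM in every pLKO and shJarid2 library, and all shPALI1 and shG9a libraries lay above all other libraries. The log2 rise was 0.99 ± 0.14 under shPALI1 (adjusted p = 6.9e-05) and 1.49 ± 0.14 under shG9a (adjusted p = 1.7e-06), and on this scale it understates the ratios of 6.35 and 10.6, since the pseudocount of 1 exceeds the pLKO level. Only shPALI1 and shG9a libraries reached 1 RPKM, so ADM passed the filter through the groups where it is high. Its p-values are therefore given as a description and not as support. Under shsuz12 the change of 0.31 did not pass, but passed with a pseudocount of 0.1 (adjusted p = 0.031) and with TPM (0.018).

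The carbonic anhydrases, which handle acid at the cell surface, differed in level. CA9, among the genes most dependent on HIF, was at 0.364, 0.162 and 0.1104 RPKM in pLKO, 0.0609, 0 and 0 in shPALI1, 0.0473, 0.212 and 0.269 in shG9a, 1.87, 0.263 and 0.724 in shJarid2 and 0.299, 0.0952 and 0.1604 in shsuz12. It was not tested, since only shJarid2 replicate 1 exceeded 1 RPKM, and the lowest shJarid2 library lay inside the pLKO range. CA12 ranged from 10.03 to 11.8 RPKM in pLKO, and it fell under shG9a (-0.46, adjusted p = 5.1e-05, 7.35 to 7.89 RPKM) and under shsuz12 (-0.24, adjusted p = 0.0052, 8.84 to 9.47 RPKM).

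The transporters SLC2A1 and SLC16A3, at the entry and exit of glycolysis, both fell under shPALI1, both rose under shJarid2 and had opposite calls under shG9a. The SLC16A3 calls under shPALI1 and shG9a were not stable, and other glucose carriers, given further below, did not all follow SLC2A1. SLC2A1, the glucose carrier GLUT1 (chr1:42925375-42959176, minus strand), was at 23.5, 22.1 and 20.2 RPKM in pLKO, 12.5, 13.00 and 13.5 in shPALI1, 10.9, 14.3 and 12.7 in shG9a, 31.9, 29.96 and 30.1 in shJarid2 and 19.1, 21.1 and 20.96 in shsuz12. The shPALI1 and shG9a libraries were all below pLKO and the shJarid2 libraries all above it. SLC2A1 fell to 59.1% of pLKO under shPALI1 (log2 change -0.71 ± 0.09, adjusted p = 1.6e-05) and to 57.5% under shG9a (-0.76 ± 0.09, adjusted p = 8.9e-06). It rose to 139.7% under shJarid2 (0.47 ± 0.09, adjusted p = 0.0004). Under shsuz12 the change was -0.10 and did not pass.

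SLC16A3, the lactate exporter MCT4, is a HIF target of strongly glycolytic cells. It was at 1.21, 1.24 and 0.8297 RPKM in pLKO, 0.458, 0.703 and 0.4697 in shPALI1, 1.805, 1.62 and 1.83 in shG9a, 3.79, 2.904 and 4.53 in shJarid2 and 0.229, 0.745 and 0.301 in shsuz12. The shJarid2 libraries lay above all others and reached 3.43 times pLKO (log2 rise 1.17 ± 0.15, adjusted p = 1.7e-05). The shPALI1 and shsuz12 libraries lay below all pLKO libraries, with falls of -0.44 (adjusted p = 0.031) and -0.57 (adjusted p = 0.0056). The rise of 0.40 under shG9a (adjusted p = 0.044) was kept in 3 of 14 alternatives and lost, among others, whenever a single library was left out. The shPALI1 fall was kept in 8 of 13. Those that lost it include leaving out pLKO replicate 1 or 2 or shPALI1 replicate 1 or 3. All values outside shJarid2 were below 2 RPKM, where counting error weighs most.

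Large log2 changes were seen in mitochondrial and stress genes: AK4 and BNIP3L under shJarid2 and NDRG1 under shPALI1. AK4, a mitochondrial adenylate kinase that HIF induces, was at 13.9, 15.4 and 13.6 RPKM in pLKO, 6.64, 6.21 and 6.98 in shPALI1, 7.51, 7.59 and 6.45 in shG9a, 2.99, 1.79 and 2.07 in shJarid2 and 9.899, 8.27 and 8.19 in shsuz12. All 12 hairpin libraries lay below the pLKO libraries, and the shJarid2 libraries lay below the rest. AK4 fell to 15.9% of pLKO under shJarid2 (log2 change -2.24 ± 0.12, adjusted p = 5e-09), to 46.2% under shPALI1 (-1.01 ± 0.12), to 50.2% under shG9a (-0.90 ± 0.12) and to 61.4% under shsuz12 (-0.65 ± 0.12, adjusted p = 0.00036). GENCODE v29 names 6 pseudogenes after AK4, and the values of genes with such copies are uncertain where counting splits reads between them.

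BNIP3 and BNIP3L encode related receptors for the removal of mitochondria, and both are HIF targets. BNIP3 was at 79.3, 82.7 and 59.5 RPKM in pLKO, 54.9, 47.1 and 47.4 in shPALI1, 73.2, 74.5 and 69.7 in shG9a, 152, 118 and 143 in shJarid2 and 69.1, 63.9 and 61.8 in shsuz12. It was highest in shJarid2, whose libraries lay above all others, and lowest in shPALI1, whose libraries lay below all others. BNIP3 rose by 0.89 ± 0.12 under shJarid2 (adjusted p = 2.4e-05) and its change under shPALI1 was -0.55 ± 0.12 (adjusted p = 0.0021). BNIP3 has 39 named pseudogenes, more than any gene here but GAPDH.

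BNIP3L went the other way. It was at 39.5, 46.2 and 37.97 RPKM in pLKO, 41.9, 39.3 and 39.5 in shPALI1, 30.5, 28.6 and 28.5 in shG9a, 14.9, 11.8 and 11.7 in shJarid2 and 44.2, 41.8 and 41.96 in shsuz12. The shJarid2 libraries were far below all others and the shG9a libraries next. BNIP3L fell to 31.1% of pLKO under shJarid2 (log2 change -1.61 ± 0.09, adjusted p = 7.5e-09) and to 70.8% under shG9a (-0.48 ± 0.09, adjusted p = 0.00066). Under shPALI1 and shsuz12 its changes of -0.03 and 0.05 did not pass. So under shJarid2 these paralogs changed in opposite directions.

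NDRG1, a stress gene induced by HIF and, in prostate cells, by androgen, was at 36.6, 33.4 and 27.8 RPKM in pLKO, 9.64, 10.1 and 11.6 in shPALI1, 25.8, 28.5 and 24.6 in shG9a, 50.5, 34.2 and 38.5 in shJarid2 and 52.5, 48.8 and 45.6 in shsuz12. The shPALI1 libraries were all below every other library, at 32.1% of pLKO (log2 change -1.55 ± 0.13, adjusted p = 5.1e-07), and the shsuz12 libraries were all above pLKO, at 150.3% (0.58 ± 0.13, adjusted p = 0.0018). Under shG9a (-0.29) and shJarid2 (0.32) it did not pass; the shG9a change passed without pLKO replicate 3 (adjusted p = 0.032) and in the 6 libraries alone (0.04). The shJarid2 change passed with median ratio scaling, with a mean RPKM of at least 3, and without pLKO replicate 1 or shJarid2 replicate 2. The summed luminal markers, many of which androgen induces, were also lowest in shPALI1, and their part in the NDRG1 fall was not tested. ANKRD37, a small ankyrin-repeat gene used as a hypoxia marker, ranged from 2.02 to 3.82 RPKM over the 15 libraries and fell under shPALI1 (-0.44, adjusted p = 0.0048) and shG9a (-0.37, adjusted p = 0.014).

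P4HA1 and P4HA2 are the catalytic subunits of collagen prolyl hydroxylase. P4HA1 was at 20.2, 21.4 and 17.5 RPKM in pLKO, 21.5, 20.9 and 21.3 in shPALI1, 22.2, 25.2 and 23.6 in shG9a, 35.4, 28.8 and 29.7 in shJarid2 and 34.4, 37.4 and 32.3 in shsuz12. The shJarid2 and shsuz12 libraries all lay above pLKO, with rises of 0.64 ± 0.09 (adjusted p = 3.9e-05) and 0.79 ± 0.09 (adjusted p = 5.7e-06), while the smaller rise under shG9a (0.26, adjusted p = 0.034) was kept in 11 of 15 alternatives and lost without pLKO replicate 1 or 3 or without shG9a replicate 2 or 3.

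P4HA2 was at 6.91, 7.12 and 5.96 RPKM in pLKO, 4.45, 4.65 and 4.07 in shPALI1, 11.3, 12.3 and 11.9 in shG9a, 4.298, 3.65 and 2.82 in shJarid2 and 10.9, 8.97 and 9.46 in shsuz12. It was higher than pLKO in all shG9a and shsuz12 libraries and lower in all shPALI1 and shJarid2 libraries. The rises were 0.74 ± 0.11 and 0.49 ± 0.11 (adjusted p = 9.2e-05 and 0.0017), and the falls -0.51 ± 0.11 and -0.75 ± 0.11 (adjusted p = 0.002 and 5.4e-05). Under shJarid2 these subunits too changed in opposite directions.

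PDK1, the kinase that shuts pyruvate out of the citrate cycle, was at 8.21, 9.57 and 6.51 RPKM in pLKO, 8.52, 8.88 and 9.27 in shPALI1, 8.06, 7.93 and 6.65 in shG9a, 12.3, 8.83 and 6.89 in shJarid2 and 7.38, 5.31 and 5.604 in shsuz12. Its groups overlapped with pLKO throughout except that 2 of the 3 shsuz12 libraries were lower, and none of its 4 changes passed (0.13, -0.08, 0.16 and -0.36). The shsuz12 change passed without pLKO replicate 3 (adjusted p = 0.037) or without shsuz12 replicate 1 (0.041).

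**Figure D2:**
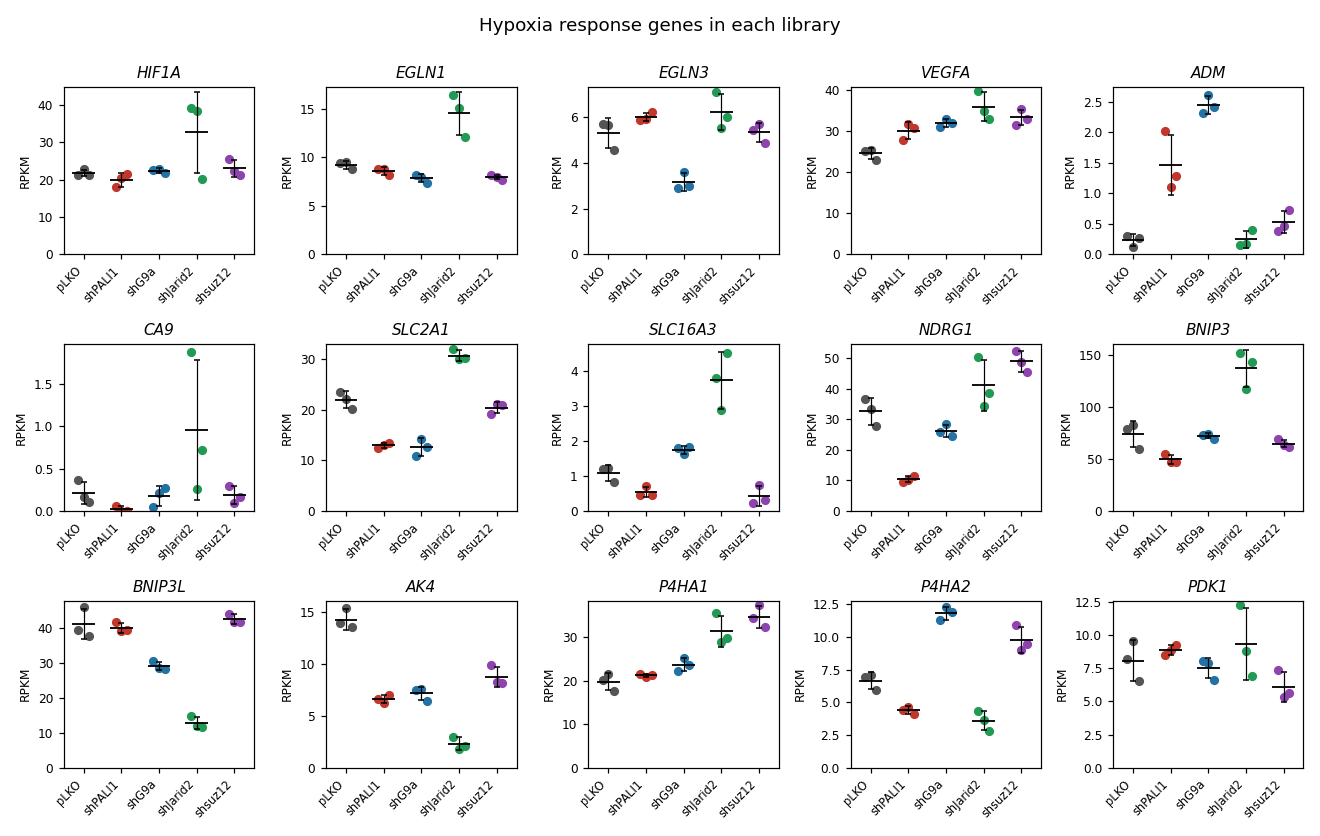
RPKM of 15 hypoxia response genes in each of the 15 libraries, 1 panel per gene with the vertical axis from 0; points are libraries, in order of replicate number, horizontal lines are group means and bars are 1 SD (n = 3). Only 2 of the 3 shJarid2 points of HIF1A stand above the other groups, whereas all 3 do for EGLN1, SLC2A1, SLC16A3 and BNIP3, and AK4 and BNIP3L are lowest in shJarid2.

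Glycolysis is described in the order of its steps. Hexokinase traps glucose in the cell, and both of its genes here fell under every hairpin. HK1, the widely expressed form (chr10:69269984-69401884, plus strand), was at 37.04, 34.5 and 33.7 RPKM in pLKO, 19.6, 18.6 and 16.6 in shPALI1, 18.9, 21.2 and 19.1 in shG9a, 23.5, 20.8 and 22.7 in shJarid2 and 19.02, 18.5 and 17.1 in shsuz12. All 12 hairpin libraries lay below the pLKO libraries, at 52.1%, 56.3%, 63.7% and 51.9% of pLKO in that order. The log2 changes were -0.91 ± 0.08, -0.80 ± 0.08, -0.63 ± 0.08 and -0.91 ± 0.08 (adjusted p = 5.5e-07, 2e-06, 1.1e-05 and 3.3e-07), and all held under every alternative.

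HK2, the HIF-induced form, was at 11.6, 11.5 and 10.3 RPKM in pLKO, 8.43, 8.498 and 9.101 in shPALI1, 6.84, 7.59 and 6.28 in shG9a, 6.82, 5.41 and 4.75 in shJarid2 and 5.62, 5.32 and 5.04 in shsuz12. Here too all hairpin libraries lay below pLKO, least so in shPALI1. HK2 fell to 47.95% of pLKO under shsuz12 (log2 change -0.94 ± 0.10, adjusted p = 3.3e-06), 50.9% under shJarid2 (-0.87 ± 0.10) and 62.2% under shG9a (-0.62 ± 0.10). Under shPALI1 it fell to 78.1% (-0.32 ± 0.10, adjusted p = 0.02). That call failed with TPM and without replicate 1 or 2 of either group.

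The isomerase and phosphofructokinase come next. GPI, the isomerase, ranged from 86.85 to 109.5 RPKM in pLKO and rose under shJarid2, where it ranged from 123.0 to 144.9 RPKM (log2 change 0.49 ± 0.09, adjusted p = 0.00033). PFKP, the platelet-type phosphofructokinase, was at 35.7, 30.6 and 27.1 RPKM in pLKO, 18.8, 18.8 and 18.3 in shPALI1, 23.6, 22.9 and 20.9 in shG9a, 32.4, 19.4 and 23.6 in shJarid2 and 23.1, 24.3 and 22.7 in shsuz12. The shPALI1, shG9a and shsuz12 libraries lay below pLKO, while shJarid2 replicate 1 lay inside the pLKO range. PFKP fell under shPALI1 to 59.8% of pLKO (-0.70 ± 0.14, adjusted p = 0.001). Its falls under shG9a (-0.45, adjusted p = 0.018) and shsuz12 (-0.39, adjusted p = 0.027) were each lost without pLKO replicate 1 and with TPM. The shG9a fall was also lost without shG9a replicate 3. The shsuz12 fall, kept in 7 of 15 alternatives, was also lost without pLKO replicate 2 or shsuz12 replicate 1 or 3, and under other alternatives. The change of -0.32 under shJarid2 did not pass. It passed in 4 of 15 alternatives, among them without shJarid2 replicate 1 (-0.51, adjusted p = 0.0013) or without pLKO replicate 3 (-0.41, adjusted p = 0.0375).

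PFKL, the liver-type form, was at 80.6, 67.97 and 62.1 RPKM in pLKO, 60.5, 60.6 and 57.1 in shPALI1, 45.4, 47.7 and 43.1 in shG9a, 71.2, 72.1 and 92.2 in shJarid2 and 53.2, 55.8 and 55.8 in shsuz12. It was lowest in shG9a, at 64.7% of pLKO (-0.61 ± 0.10, adjusted p = 0.00029), and it also fell under shsuz12 (-0.34, adjusted p = 0.012), which did not pass once pLKO replicate 1 was left out. PFKM, the muscle-type form, ranged from 49.96 to 58.25 RPKM in pLKO and fell under shG9a alone among the comparisons, to 36.45 to 37.04 RPKM (-0.54 ± 0.06, adjusted p = 8.1e-06); the shG9a change differed from those of shPALI1 (0.47 for shPALI1 minus shG9a), shJarid2 (-0.43 for shG9a minus shJarid2) and shsuz12 (-0.60 for shG9a minus shsuz12), and each of these passed.

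The PFKFB enzymes set the level of the sugar that activates phosphofructokinase. PFKFB4, induced by HIF, was at 4.66, 4.03 and 3.49 RPKM in pLKO, 3.45, 3.04 and 3.17 in shPALI1, 7.47, 6.73 and 6.26 in shG9a, 8.84, 4.19 and 6.86 in shJarid2 and 6.73, 6.34 and 6.45 in shsuz12. All shG9a and shsuz12 libraries lay above pLKO, the shPALI1 libraries lay below it, and shJarid2 replicate 2 fell inside the pLKO range. The rises were 0.63 ± 0.17 under shG9a, 0.55 ± 0.17 under shJarid2 and 0.57 ± 0.17 under shsuz12 (adjusted p = 0.0077, 0.014 and 0.01). The shJarid2 call was lost without shJarid2 replicate 1 (adjusted p = 0.066) and pLKO replicate 3 (0.059) and in the 6 libraries alone (0.076), and kept in 12 of 15 alternatives. PFKFB3 ranged from 4.27 to 7.35 RPKM over the 15 libraries and fell under shsuz12 (-0.37, adjusted p = 0.021).

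Aldolase splits the sugar into 3-carbon units. ALDOA, the main form (chr16:30064164-30070457, plus strand), was at 331, 276 and 249 RPKM in pLKO, 254, 242 and 238 in shPALI1, 247, 268 and 234 in shG9a, 493, 452 and 606 in shJarid2 and 224, 228 and 226 in shsuz12. The shJarid2 libraries stood far above all others, at 1.81 times pLKO (log2 change 0.85 ± 0.11, adjusted p = 2.2e-05). Its fall under shsuz12 (-0.33, adjusted p = 0.025) was kept in 9 of 15 alternatives. It was lost without pLKO replicate 1 or any shsuz12 library and under other alternatives too.

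ALDOC, the brain-type form, was at 45.9, 39.6 and 32.7 RPKM in pLKO, 28.4, 24.1 and 26.3 in shPALI1, 43.7, 43.4 and 40.1 in shG9a, 51.9, 42.1 and 60.3 in shJarid2 and 72.98, 75.2 and 72.3 in shsuz12. The shsuz12 libraries were the highest and the shPALI1 libraries the lowest, each without overlap with pLKO. ALDOC rose under shsuz12 to 1.86 times pLKO (0.90 ± 0.13, adjusted p = 3.8e-05) and fell under shPALI1 to 66.7% (-0.56 ± 0.13, adjusted p = 0.0027). The rise under shJarid2 (0.37, adjusted p = 0.022) was kept in 11 of 15 alternatives. Those that lost it include leaving out shJarid2 replicate 1 or 3 or pLKO replicate 3.

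The lower part of the pathway holds its most abundant RNAs. TPI1, the triose isomerase, ranged from 159.9 to 199.2 RPKM in pLKO and fell under shsuz12 (-0.36, adjusted p = 0.021). It also fell under shJarid2 (-0.36, adjusted p = 0.021), with overlap with pLKO, at 116.5 to 174 RPKM. GAPDH, often taken as a reference gene, was at 1107, 984 and 910.0 RPKM in pLKO, 1234, 1133 and 1111 in shPALI1, 766, 816 and 733 in shG9a, 1048, 958 and 1259 in shJarid2 and 718, 724 and 706 in shsuz12. It was the most abundant of the 36 genes per length, and the shG9a and shsuz12 libraries all lay below pLKO while those of shPALI1 all lay above it. GAPDH fell to 77.1% of pLKO under shG9a (-0.37 ± 0.11, adjusted p = 0.011) and to 71.6% under shsuz12 (-0.48 ± 0.11, adjusted p = 0.0017).

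The shG9a call of GAPDH was lost without pLKO replicate 1, without shG9a replicate 3, without the filter and with quantile normalization. Under shPALI1 its change of 0.22 did not pass, but passed with median ratio scaling (0.25, adjusted p = 0.047) and with TPM (0.24, adjusted p = 0.00272). Over all alternatives the shPALI1 change ran from -0.12 to 0.29, so even its sign depended on the processing. The shJarid2 change of 0.12 passed with quantile normalization (0.34, adjusted p = 0.000592). GAPDH has 62 named pseudogenes in GENCODE v29, more than any other gene here. The summed level of the 19 glycolysis genes was 2787 to 3448 RPKM in pLKO, 2801 to 3072 in shPALI1, 2366 to 2612 in shG9a, 3034 to 3916 in shJarid2 and 2261 to 2309 in shsuz12, and GAPDH made up 30.3% to 32.6% of it in every group but shPALI1, where it made up 39.7% to 40.2%.

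PGK1, which makes the first ATP of the pathway, was at 205, 189.7 and 163 RPKM in pLKO, 153, 141 and 138 in shPALI1, 181, 192 and 179.7 in shG9a, 314, 259.5 and 307 in shJarid2 and 161, 157 and 155 in shsuz12. It was highest in shJarid2, where all libraries lay above the rest, at 1.58 times pLKO (log2 change 0.66 ± 0.09, adjusted p = 3.6e-05), and all shPALI1 libraries lay below pLKO (-0.36 ± 0.09, adjusted p = 0.0061). The fall under shsuz12 (-0.23, adjusted p = 0.047) was kept in 5 of 15 alternatives. It was lost without pLKO replicate 1 or 2, without any shsuz12 library and under other alternatives too. Over the alternatives its log2 change ran from -0.32 to -0.05, with an adjusted p of up to 0.657. PGAM1, the mutase, ranged from 11.7 to 19.2 RPKM over the 15 libraries with no change that passed, and has 13 named pseudogenes.

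Enolase makes phosphoenolpyruvate. ENO1, the main form, was at 469.6, 408 and 368 RPKM in pLKO, 359, 346 and 330.2 in shPALI1, 326, 356 and 322 in shG9a, 392, 324 and 432 in shJarid2 and 234, 228 and 231 in shsuz12. The shsuz12 libraries lay below all others, at 55.7% of pLKO (log2 change -0.83 ± 0.11, adjusted p = 1.6e-05). The shG9a fall (-0.30, adjusted p = 0.032) was kept in 9 of 15 alternatives. It was lost without pLKO replicate 1 or 2, without shG9a replicate 1 or 3 and under other alternatives too. ENO2, the neuron-type form used as a neuroendocrine marker, ranged from 6.06 to 12.15 RPKM over the 15 libraries and did not pass in any of the 4 comparisons.

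PKM, the pyruvate kinase, was at 362, 343 and 294 RPKM in pLKO, 287, 276 and 266 in shPALI1, 247, 269 and 244 in shG9a, 329.9, 296 and 378 in shJarid2 and 254, 257 and 254 in shsuz12. The libraries of shPALI1, shG9a and shsuz12 all lay below pLKO, and those of shJarid2 overlapped with it. PKM fell under shG9a and shsuz12, with log2 changes of -0.39 and -0.38 (adjusted p = 0.0043 and 0.0039). The shPALI1 fall (-0.26, adjusted p = 0.039) was kept in 8 of 15 alternatives. It was lost without pLKO replicate 1 or 2, without any shPALI1 library and under other alternatives too.

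Lactate dehydrogenase closes the pathway, with LDHA favoured in glycolytic tissue and LDHB in oxidative tissue. LDHA, whose window holds the core in 3 places, was at 208, 204 and 174 RPKM in pLKO, 126, 112 and 117 in shPALI1, 146, 159.6 and 135 in shG9a, 234, 181 and 211 in shJarid2 and 134, 125 and 118 in shsuz12. The shPALI1, shG9a and shsuz12 libraries all lay below pLKO, and those of shJarid2 lay on its upper side with overlap. LDHA fell to 60.6% of pLKO under shPALI1 (-0.71 ± 0.10, adjusted p = 8.3e-05), to 64.3% under shsuz12 (-0.63 ± 0.10, adjusted p = 0.00015) and to 75.2% under shG9a (-0.41 ± 0.10, adjusted p = 0.0056). The shG9a call was lost with quantile normalization (adjusted p = 0.095).

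LDHB was at 149, 146 and 136 RPKM in pLKO, 159, 148 and 143 in shPALI1, 73.4, 67.1 and 71.3 in shG9a, 84.6, 84.6 and 109.7 in shJarid2 and 70.1, 70.7 and 70.7 in shsuz12. Its libraries fell into 2 sets, with pLKO and shPALI1 overlapping at the top and shG9a, shJarid2 and shsuz12 all below them. LDHB fell to 49.1% of pLKO under shG9a (-1.02 ± 0.09, adjusted p = 9.7e-07), to 49.1% under shsuz12 (-1.02 ± 0.09, adjusted p = 5.3e-07) and to 64.7% under shJarid2 (-0.63 ± 0.09, adjusted p = 4.4e-05). Under shPALI1 the change of 0.06 did not pass, except with quantile normalization (0.14, adjusted p = 0.0412). The difference of shPALI1 from each of the other hairpins passed (log2 1.08 against shG9a, 0.69 against shJarid2 and 1.08 against shsuz12).

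**Figure D3:**
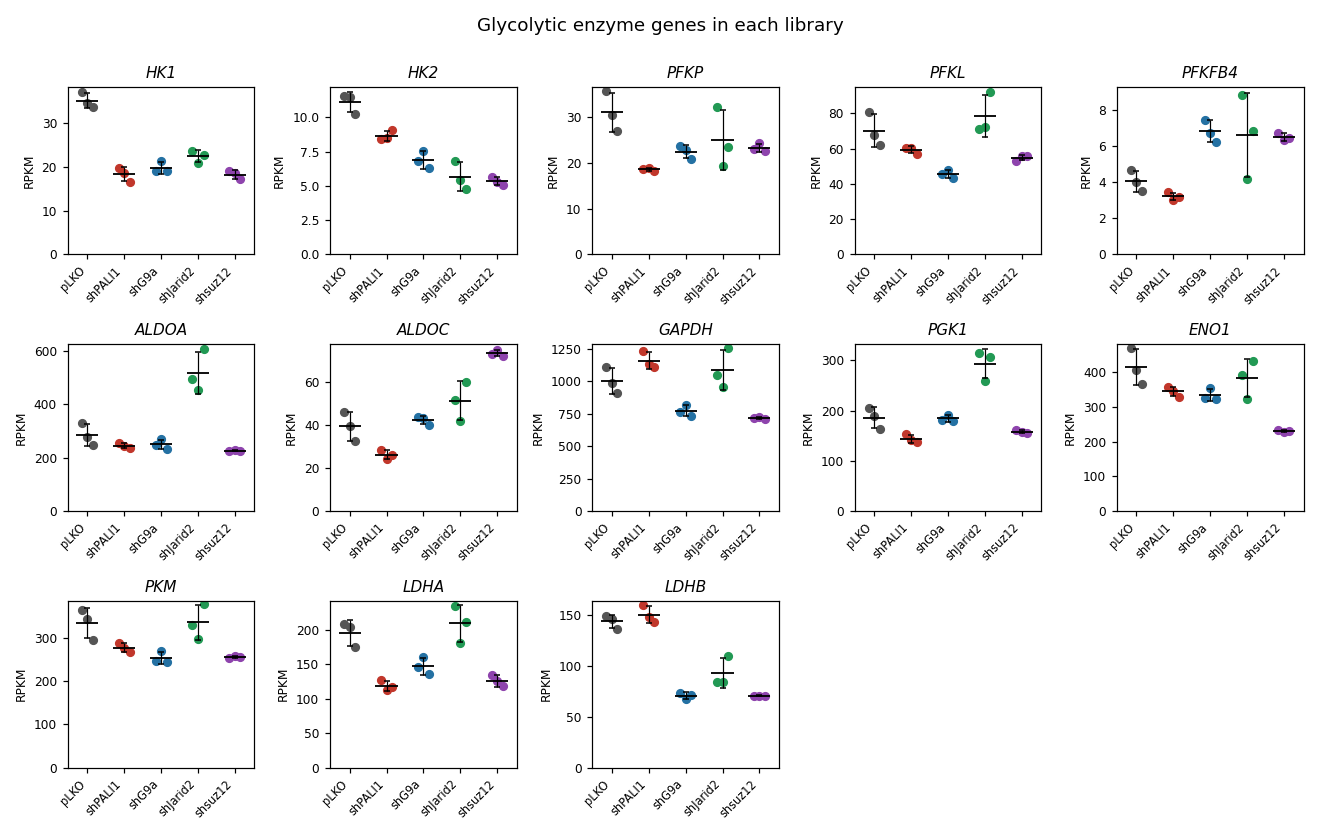
RPKM of 13 glycolysis genes in each of the 15 libraries, 1 panel per gene with the vertical axis from 0; points are libraries, in order of replicate number, horizontal lines are group means and bars are 1 SD (n = 3). HK1 and HK2 are below pLKO in all hairpin libraries, ALDOA and PGK1 stand out in shJarid2, and LDHB is low in shG9a, shJarid2 and shsuz12 only.

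Because RPKM is per length, the paralogs of a step can be set against each other inside each library, which removes differences in scaling between libraries. LDHB made up 41.7, 41.7 and 43.9% of LDHA plus LDHB in pLKO, 55.8, 56.8 and 55.1% in shPALI1, 33.4, 29.6 and 34.5% in shG9a, 26.5, 31.8 and 34.2% in shJarid2 and 34.3, 36.1 and 37.5% in shsuz12. The share was thus above pLKO in every shPALI1 library and below it in every other hairpin library. HK2 made up 23.8, 24.9 and 23.3% of the hexokinase sum in pLKO and 30, 31.3 and 35.5% in shPALI1, where both genes fell. The HK2 share was below pLKO in every library of shJarid2 (17.3% to 22.5%) and shsuz12 (22.3% to 22.8%). ALDOC was 12.2, 12.5 and 11.6% of the aldolase sum in pLKO, 24.6, 24.8 and 24.2% in shsuz12 and 9.52, 8.52 and 9.06% in shJarid2, while it was 10.1, 9.02 and 9.97% in shPALI1 and 15, 13.9 and 14.6% in shG9a. The brain-type share was thus above pLKO in every shsuz12 and shG9a library and below it in every shJarid2 and shPALI1 library. PFKP was 20.5, 20.2 and 19.5% of the phosphofructokinase sum in pLKO and 14.3, 14.5 and 14.6% in shPALI1. The PFKP share was also below pLKO in shsuz12 (16.9% to 17.9%) and above it in shG9a (20.8% to 22.3%). Each of these shares, without overlap with pLKO, gave p = 0.1 in a two-sided exact permutation test, which is the smallest p that 3 against 3 libraries allow, so this test cannot pass 0.05 here. ENO2 was 1.95% to 2.14% of the enolase sum in pLKO. It was 3.43% to 3.93% in shsuz12 and 2.94% to 3.64% in shG9a, where in both ENO1 had fallen and ENO2 had not passed. In shPALI1 it lay below pLKO, at 1.72% to 1.92%.

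**Figure D4:**
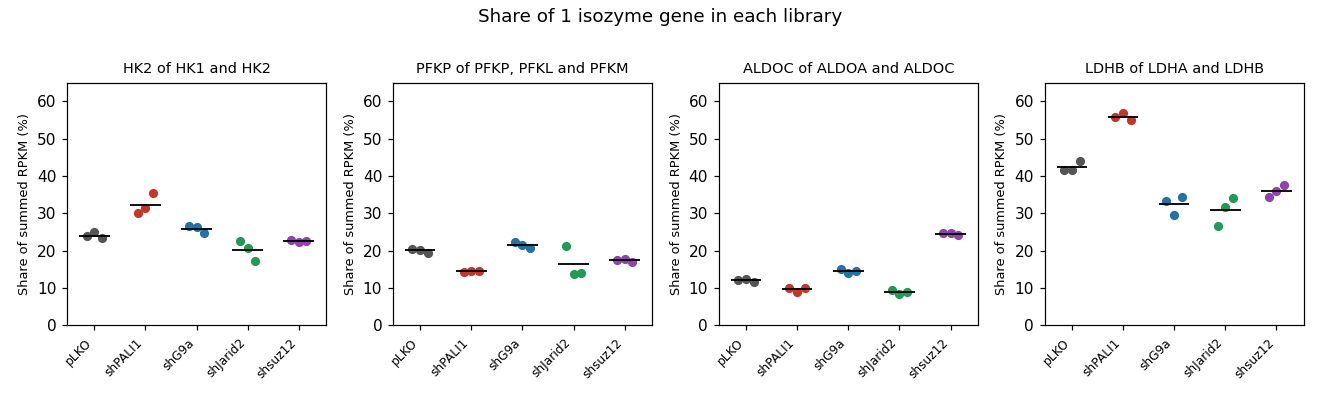
Share of 1 paralog in the summed RPKM of its step, in percent, for hexokinase, phosphofructokinase, aldolase and lactate dehydrogenase; points are the 3 libraries of each group and lines are group means. The LDHB share is above pLKO in shPALI1 and below it in shG9a, shJarid2 and shsuz12, and the ALDOC share is highest in shsuz12.

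Contrasts of hairpins with each other tested where the responses differed. They compare no pLKO levels, though the pLKO libraries enter the shared estimate of the spread. Between shPALI1 and shJarid2, 26 of the 35 genes passed (62.3% of all tested genes did), 5 higher and 21 lower in shPALI1, the largest count of the 6 pairs. With TPM this split became 7 and 17. Between shG9a and shJarid2, 24 passed (55.8%), with 18 of them lower in shG9a. Between shJarid2 and shsuz12, 22 passed (59%), 17 higher and 5 lower in shJarid2, a split that became 12 and 8 with quantile normalization and 15 and 9 with TPM. The pairs without shJarid2 gave 18 for shPALI1 and shG9a (48.2%), 19 for shPALI1 and shsuz12 (55.9%; 8 higher and 11 lower in shPALI1, 5 and 14 with TPM) and 15 for shG9a and shsuz12 (45.6%).

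Several genes separated shJarid2 from every other hairpin. ALDOA was higher in shJarid2 than in shPALI1 (log2 difference -1.07 for shPALI1 minus shJarid2), shG9a (-1.04 for shG9a minus shJarid2) and shsuz12 (1.18 for shJarid2 minus shsuz12). In the same order, PGK1 gave -1.02, -0.66 and 0.89, BNIP3 gave -1.44, -0.91 and 1.06, and SLC16A3 gave -1.61, -0.77 and 1.74. EGLN1 and SLC2A1 were likewise higher in shJarid2 in each of these contrasts. AK4 and BNIP3L were lower in shJarid2 in each, with log2 differences of -1.59 and -1.67 for shJarid2 minus shsuz12. For HIF1A the difference from shsuz12 (0.43) did not pass, while those from shPALI1 (-0.63) and shG9a (-0.46) did. NDRG1 separated shPALI1 from the rest, with log2 differences of -1.25 from shG9a, -1.86 from shJarid2 and -2.13 from shsuz12. ADM was higher in shG9a than in shPALI1 (-0.50 for shPALI1 minus shG9a), and both were higher than the other hairpins.

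The promoter core and the changes were set side by side as a description. Under shJarid2 the 13 tested genes with the core had a median log2 change of 0.37 (from -2.24 to 0.89) and the 19 without it 0.01 (from -0.75 to 1.17), while all tested genes with and without the core stood at -0.03 and -0.03. Under shPALI1 the medians were -0.36 with the core and -0.14 without, under shG9a -0.18 and -0.30, and under shsuz12 -0.19 and -0.34. The core was present in genes that rose under shJarid2, such as BNIP3, ALDOA and PGK1, and in genes that fell there, AK4 and HK2. SLC2A1 and SLC16A3, which also rose, hold no ACGTG in this window.

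Neighbouring pathways were counted from lists too, and their counts stand beside the shares of all tested genes that rose and fell, 16.5% and 25.1% under shPALI1, 18.4% and 24.7% under shG9a, 23.8% and 27.2% under shJarid2, and 21.1% and 32.8% under shsuz12. They were not tested against those shares. Of 25 tested other hypoxia targets, 3 rose and 12 fell under shPALI1, 6 and 8 under shG9a, 9 and 8 under shJarid2, and 7 and 8 under shsuz12. BHLHE40, a HIF-induced repressor, fell under shPALI1 to 29.6% of pLKO (log2 change -1.47 ± 0.14, adjusted p = 1.3e-06). It also fell under shsuz12 (-0.73) and, with overlap with pLKO, under shJarid2 (-0.39). HILPDA, a HIF-induced lipid droplet protein, fell under shJarid2 (-1.19, adjusted p = 8.7e-08) and rose under shPALI1 (0.46) and shG9a (0.24). RAB20, a small GTPase, rose under shJarid2 (1.12, adjusted p = 1e-06) and shG9a (0.33) and fell under shPALI1 (-0.55).

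Among the other forms and regulators of glycolysis, 2 rose and 3 fell of 8 tested under shPALI1, 1 and 5 under shG9a, 1 and 3 under shJarid2, and 1 and 3 under shsuz12. ENO3, the muscle enolase, fell under shsuz12 (-0.92, adjusted p = 4.4e-05) and shG9a (-0.38). ADPGK, an ADP-dependent glucokinase, rose under shsuz12 (0.72, adjusted p = 2.3e-06) and shJarid2 (0.45) but fell under shPALI1 (-0.60) and shG9a (-0.61). PFKFB2 fell under shPALI1 (-0.65, adjusted p = 0.00057), shJarid2 (-0.60) and shsuz12 (-0.32). Of 7 tested glucose and lactate transporters, 4 rose and 1 fell under shPALI1, 2 and 1 under shG9a, 2 and 2 under shJarid2, and 2 and 3 under shsuz12. SLC2A12 (GLUT12) rose under all 4 hairpins, by 0.84, 0.54, 0.77 and 0.79. SLC2A4 (GLUT4) rose under shPALI1 (0.88) and fell under shJarid2 (-0.78) and shsuz12 (-0.26). BSG, the chaperone of the lactate carriers, rose under shsuz12 (0.71, adjusted p = 0.00038), shG9a (0.43) and, with overlap with pLKO, shJarid2 (0.32).

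The next lists follow pyruvate into mitochondria. Of 13 tested genes for its entry, 0 rose and 8 fell under shPALI1, 0 and 7 under shG9a, 2 and 5 under shJarid2, and 2 and 11 under shsuz12. Both counts of 0 were 0 at an unadjusted p under 0.05 as well. The mitochondrial pyruvate carrier subunit MPC2 fell under shPALI1 to 39.95% of pLKO (-1.31 ± 0.08, adjusted p = 2.9e-08) and under shG9a (-0.99) and shsuz12 (-0.76). DLAT and PDHX, subunits of pyruvate dehydrogenase, fell under all 4 hairpins, DLAT most under shG9a (-1.26) and PDHX most under shPALI1 (-0.997). Of 21 tested citrate cycle genes, 1 rose and 13 fell under shPALI1, 1 and 13 under shG9a, 5 and 4 under shJarid2, and 1 and 15 under shsuz12. FH, the fumarase, fell under shsuz12 (-1.11, adjusted p = 1.7e-08) and less under shPALI1 (-0.25) and shG9a (-0.24). IDH3B fell under shsuz12 (-0.92) and shG9a (-0.29). IDH1, the cytosolic isocitrate dehydrogenase, rose under shJarid2 (1.26), shsuz12 (0.91) and shG9a (0.48) and fell under shPALI1 (-0.24).

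The branches off glycolysis moved gene by gene. Of 10 tested pentose phosphate genes, 3 rose and 2 fell under shPALI1, 3 and 2 under shG9a, 4 and 2 under shJarid2, and 1 and 5 under shsuz12. H6PD rose under all 4 hairpins, most under shsuz12 (0.82). PRPS1, which makes the nucleotide precursor PRPP, also fell under all 4, most under shsuz12, to 31.9% of pLKO (-1.59 ± 0.06, adjusted p = 3.2e-10). Its falls under shPALI1, shG9a and shJarid2 were -0.68, -0.33 and -0.17. Of 10 tested glycogen genes, 0 rose (0 also at an unadjusted p under 0.05) and 3 fell under shPALI1, 2 and 5 under shG9a, 4 and 3 under shJarid2, and 1 and 6 under shsuz12. PYGL, a glycogen phosphorylase, fell under all 4 hairpins (-1.34, -1.49, -1.35 and -0.60), and PPP1R3B, which targets a phosphatase to glycogen, rose under shsuz12 (1.08) and shG9a (0.44).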

How the data were processed

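RNA sequencing of 15 LNCaP libraries was analysed from 1 deposited table of RPKM values per gene, made by the authors. Per the submitters' processing notes the tools include STAR and the build hg38; the sources used here do not give versions, the gene annotation, the counting tool or its strand setting. Of 26475 names in the table, 32 had no values and were left out, and 28 had been turned into dates. RPKM values are not counts, so they were tested as log2(RPKM + 1) with limma 3.58.1 in R 4.3.3 (eBayes with trend), fitted on all 15 libraries and on 12715 genes that reached 1 RPKM in 3 or more libraries. P-values were adjusted by the Benjamini-Hochberg method over all these genes within a comparison and called at 0.05. Fold changes on this scale understate the change of low genes. Each library's depth was estimated as the value at which RPKM of short RNA genes, 2294 in the table, became whole reads. Only nonzero values of few reads were checked, 345 to 463 per library. Of these, 92.8% to 95.5% came within 0.05 of a whole number, a share that is partly circular because the same values set the depth.

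The members and gene lists were chosen with earlier results of these data known. Values in every library were printed for members called with a change of at least 1.5-fold and for 6 others whatever their change. Of other genes, the HIF regulators VHL, ARNT, EPAS1, HIF1AN and EGLN2 were named and, per list, up to 3 called genes with the largest change and a mean RPKM of at least 2. Some genes that this rule names are not reported here. Promoter windows came from RefSeq (GRCh38.p14) and gene positions from GENCODE v29. On data simulated for shPALI1 against pLKO with 12230 genes, 68 of 100 genes changed 1.5-fold and 95 of 100 changed 2-fold were recovered, with 4 false calls. The simulated noise was normal, only better expressed genes were changed, and far fewer changed than passed in the data. These rates therefore do not carry over to low genes such as ADM and SLC16A3, nor directly to the real comparisons. Alternatives were other pseudocounts, filters and scalings, the 6 libraries of a comparison alone, a replicate block, and leaving out each library. RPKM gives no counts per gene, so no counting intervals are given.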

Additional observations from a re-analysis of the deposited data

How the results depend on the processing

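Of 150 counts of called members recomputed under the alternatives, 149 were within 1.5 times the reported count. The other was shG9a against shsuz12, where 23 rather than 15 members passed in the 6 libraries alone; the cause was not tested. Leaving out 1 library at a time gave 13 to 19 called members for shPALI1 against pLKO, 16 to 21 for shG9a, 17 to 19 for shJarid2 and 17 to 25 for shsuz12. Of 70 called changes of the named members against pLKO, 54 kept their call under every alternative run and 16 lost it under at least 1. Of 38 that did not pass, 17 passed under at least 1, and no called change reversed its sign. With TPM the median of all tested genes moved by 0.10 (log2) for shG9a and by 0.11 for shsuz12 against pLKO, so the members' levels there are relative to the scaling. Replicate numbers are shared across groups. The deviations of same-numbered libraries correlated at -0.271 to 0.301, and not every pair exceeded 0.1 in any comparison. The main fit used no pairing, but with 3 libraries per group this check cannot exclude one. With the replicate block, 15 members passed for shPALI1, 22 for shG9a, 20 for shJarid2 and 23 for shsuz12 against pLKO. Every library correlated best with its own number only in shG9a against shsuz12 (6 of 6). Genes near 1 RPKM rest on few reads, and ADM, SLC16A3 and CA9 have the least depth behind them.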

Other observations

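EPAS1 was too low for the test, with 0.2917 to 0.3916 RPKM in pLKO, 0.0135 to 0.09952 in shG9a and 0.1316 to 0.2799 in shJarid2, so that both of these groups lay below the pLKO range. The phosphofructokinase sum shifted between its paralogs as well. PFKL made up 44.6% to 46.2% of it in pLKO, 46.9% to 54.9% in shJarid2 and 40% to 41.6% in shsuz12. In shG9a every library was below pLKO too, down to 42.8%. PFKM made up 33.4% to 35.9% in pLKO, 41% to 42.6% in shsuz12 and 39% to 39.9% in shPALI1.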
